A study of Mus musculus with 6 samples.

Results

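Long noncoding RNAs (lncRNAs) expressed in mouse liver were examined in Alkbh5-HKO mice and in Alkbh5flox/flox mice. They were taken as the genes that the deposited table gives the biotype lncRNA and whose mean level over the 6 libraries was at least 3 FPKM (fragments per kilobase of gene, scaled to library size). This gave 165 of the 11663 lncRNA genes in the table, which lists 41838 genes in all. Because the minimum was set on a mean over both genotypes, a lncRNA could enter through its level in a single genotype, and the counts below cover these 165 and not lncRNAs in general. The lncRNAs nearest to the minimum from above were Gm40800, 1810021B22Rik and Gm35724 with means of 3.01, 3.02 and 3.02 FPKM, and those nearest from below were Gm33330, LOC108168394 and LOC108167686 with 2.99, 2.93 and 2.91 FPKM.

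RNA had been prepared from whole livers of 3 Alkbh5-HKO mice (called HKO here) and 3 Alkbh5flox/flox mice (called flox here), all 9 weeks old and fed normal chow. The genotype field writes the first group as Alkbh5-CKO, and neither abbreviation is spelled out. The labels name no Cre line, no sex and no day of collection. Libraries were made from poly-A RNA, so lncRNAs without a poly-A tail were largely not captured, and in bulk tissue fewer cells of a type and less RNA per cell cannot be told apart.

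Alkbh5 removes N6-methyladenosine (m6A), a methyl mark on adenosines in messenger RNAs and lncRNAs. LncRNAs are RNAs without a long open reading frame, and they act in several ways: some build nuclear bodies, some carry small nucleolar RNAs (snoRNAs) or microRNAs in their introns, and some influence transcription of genes beside them. Malat1 is among the lncRNAs known to carry m6A. The values here are RNA levels and do not measure the mark.

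Alkbh5 itself had 0.508, 0.443 and 0.476 FPKM in HKO livers, against 17.8, 16.8 and 14.8 FPKM in flox livers (log2 fold change -3.56, limma adjusted p = 8.14e-05), and all libraries matched their labels. The libraries held 14907384 to 17034754 reads assigned to genes, recovered from the FPKM values and gene lengths, and the 165 lncRNAs took 0.447% to 0.490% of them in HKO libraries and 0.460% to 0.580% in flox libraries. On the first principal component (44.0% of the variance) HKO replicates 1 to 3 lay at -38.6, -15.7 and -4.51. Flox replicates 1 to 3 lay at 22.7, 22.4 and 13.7, so the component separated the genotypes, with HKO replicate 1 at the far end. HKO replicate 1 also had the largest share of mitochondrial reads, 5.67% beside 3.66% to 4.68% in the other libraries. The defining liver genes were abundant in every library: Alb, Apoa1, Ttr and Serpina1a summed to 46877 to 49163 FPKM in HKO livers and 41220 to 49235 FPKM in flox livers. Erythroid genes (Hbb-bs, Hbb-bt, Hba-a1, Hba-a2, Alas2) summed to 105 to 209 FPKM in HKO livers and 352 to 674 FPKM in flox livers, with 5 of 5 lower in every HKO library. T and NK cell genes (Cd3e, Cd8a, Nkg7, Ccl5) summed to 3.94 to 7.53 FPKM in HKO livers and 2.02 to 2.93 FPKM in flox livers. Of these 4 genes, 2 were higher in every HKO library. Adipocyte genes (Adipoq, Plin1, Cidec) summed to 2.11 to 2.85 FPKM in HKO livers and 4.49 to 12.9 FPKM in flox livers. Of these 3 genes, only 1 was lower in every HKO library. Kupffer cell genes (Clec4f, Vsig4, Cd5l, Timd4) summed to 86.4 to 158 FPKM in HKO livers and 81.5 to 128 FPKM in flox livers. The sums of sinusoidal endothelial, stellate cell, cholangiocyte, B cell, neutrophil and pancreatic acinar genes likewise overlapped between the genotypes. Among all genes with a mean of at least 1 FPKM, every HKO library was above every flox library for 12.8% and below for 12.6%. Any part of the differences in cell type genes in the lncRNA values was not tested.

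Across the 165 lncRNAs, 2 fell in HKO livers and 0 rose at an adjusted p under 0.05 (limma on log2(FPKM + 1), Benjamini-Hochberg adjustment over all 10453 genes with a mean of at least 1 FPKM). Of all genes tested, 0.488% were called, 0.22% as lower and 0.268% as higher. Voom on reads recovered from the FPKM values called 3 lncRNAs lower and 0 higher. Limma without the filter on low values called 0 in either direction, and so did limma with a block for the replicate number. The lncRNAs that fell were Gm33459 and Gm30107, from loci 236493 and 52434 bases from the nearest protein-coding gene. An unadjusted limma p under 0.05 was reached by 42 of the 165, 25.5% of them, beside 17.0% of all genes tested. Of the 42, 24 were higher and 18 lower in HKO livers, where 8.57% and 8.44% of all genes tested were.

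The promoters of both lncRNAs are shown because they are the start regions of the transcripts that changed. Each runs from 250 bases before to 50 bases after the RefSeq start on GRCm38.p6. The Gm33459 promoter lies at chr9:74528637-74528936 on the minus strand and the Gm30107 promoter at chr8:114081091-114081390 on the minus strand. Capitals mark the 1 match found for 5 motifs searched on both strands (the TATA box as TATAAA, the CCAAT box, the GC box as GGGCGG, the E-box as CACGTG, and the nuclear receptor direct repeat with a spacer of 1 base); the match is a CCAAT box on the opposite strand.
Gm33459: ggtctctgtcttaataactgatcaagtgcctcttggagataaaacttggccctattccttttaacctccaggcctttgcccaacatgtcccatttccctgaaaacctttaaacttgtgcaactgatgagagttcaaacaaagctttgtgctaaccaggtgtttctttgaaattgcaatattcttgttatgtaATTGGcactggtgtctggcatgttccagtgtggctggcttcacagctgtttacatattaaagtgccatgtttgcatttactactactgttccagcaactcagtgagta
Gm30107: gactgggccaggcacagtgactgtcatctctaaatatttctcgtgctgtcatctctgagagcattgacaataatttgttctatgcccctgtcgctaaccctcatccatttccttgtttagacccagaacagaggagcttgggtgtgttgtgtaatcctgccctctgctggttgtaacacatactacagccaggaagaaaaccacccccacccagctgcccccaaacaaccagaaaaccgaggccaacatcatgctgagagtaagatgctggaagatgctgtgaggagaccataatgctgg
The Gm33459 promoter held 0 CpG dinucleotides and the Gm30107 promoter 3, against a median of 6.5 over the 126 lncRNAs of the set that have a promoter in the RefSeq table and 7 over all 32851 promoters there. CCAAT was present in 32.5% of the 126 and in 37.4% of all promoters, TATAAA in 15.1% and 13.6%, GGGCGG in 35.7% and 35.7%, CACGTG in 8.73% and 7.15%, and the direct repeat in 0 of the 126 and 0.0396% of all promoters. Motifs that shared letters were each counted. A match of letters is a description of the window and not a binding site.

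Gm33459 (gene ID 102636374) is annotated at chr9:74519696-74528686 on the minus strand. It had 2.66, 0.365 and 1.08 FPKM in HKO livers, against 17.4, 21.1 and 17.4 FPKM in flox livers. All 3 HKO libraries lay far below the 3 flox libraries. The log2 fold change was -3.16 (SE 0.332, 95% interval -3.94 to -2.38, limma adjusted p = 0.0297). The adjusted p was 0.111 without the filter on low values and 0.0524 with a pseudocount of 0.1. It was 0.0654 without HKO replicate 2, 0.125 without flox replicate 1 and 0.115 without flox replicate 2, with log2 fold changes of -2.82 to -3.53 over all single-library omissions. Its nearest protein-coding gene, Wdr72, lay 236493 bases away and was listed at 0 in 5 of the 6 libraries.

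Gm30107 (gene ID 102631886) is annotated at chr8:114010658-114081140 on the minus strand. It had 3.22, 3.23 and 3.22 FPKM in HKO livers, against 8.37, 10.7 and 12.0 FPKM in flox livers. The HKO libraries were nearly equal, and the groups did not overlap. The log2 fold change was -1.41 (SE 0.148, 95% interval -1.76 to -1.07, limma adjusted p = 0.0297). The adjusted p was 0.111 without the filter on low values. It was 0.0906 and 0.0868 without HKO replicate 1 or 2, and 0.0763 and 0.118 without flox replicate 1 or 2, with log2 fold changes of -1.55 to -1.31. The nearest protein-coding gene was Nudt7, which encodes a peroxisomal coenzyme A diphosphatase and starts 52434 bases away in the opposite direction. Nudt7 had 79.4 ± 15.4 FPKM in HKO livers and 130 ± 7.18 FPKM in flox livers (SD, n = 3 each), a log2 fold change of -0.72 that did not pass the test (limma adjusted p = 0.1004).

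**Figure D1:**
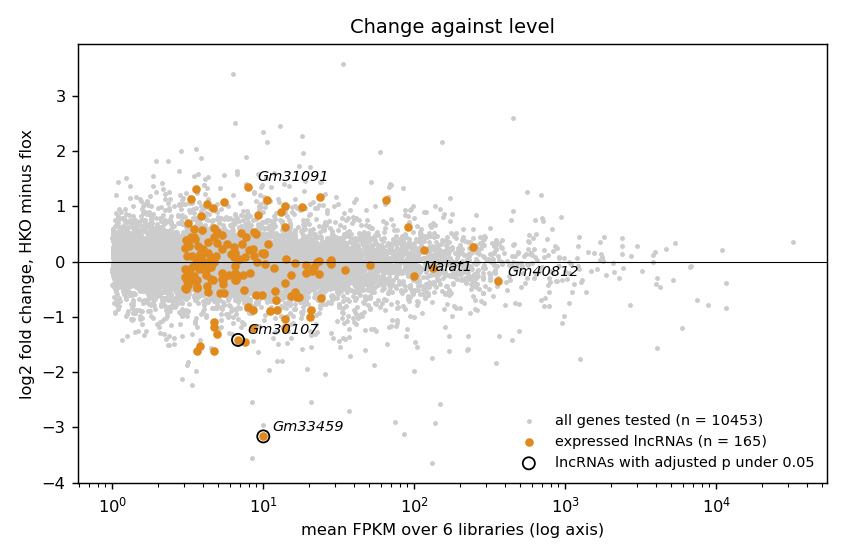
Log2 fold change (HKO minus flox, y axis) against the mean FPKM over 6 libraries (x axis, log scale) for all 10453 genes tested (grey) and the 165 expressed lncRNAs (orange). Circles mark Gm33459 and Gm30107, the lncRNAs with an adjusted p under 0.05, at -3.16 and -1.41; Gm31091 at 1.35 is the highest orange point, and Gm40812, at -0.35, is the orange point farthest right.

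The 165 lncRNAs as a whole were spread around no change. Their median log2 fold change was -0.06, beside -0.02 over all genes tested, with quartiles at -0.35 and 0.27 and a range of -3.16 to 1.35. In HKO livers 73 were higher and 92 lower than in flox livers, so that 55.8% were lower, beside 52.0% of all genes tested. An absolute log2 fold change of at least 1 was seen in 22 of the 165 lncRNAs, 9 higher and 13 lower in HKO livers. Of all genes tested 297 of 10453 (2.84%) reached it, 1.33% higher and 1.51% lower, a smaller share than among the lncRNAs. The groups did not overlap for 43 lncRNAs (26.1%, beside 25.4% of all genes tested), 24 with all HKO libraries above (14.5%, beside 12.8%) and 19 with all below (11.5%, beside 12.6%). These shares of non-overlapping groups were near the background of all genes.

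Replicates of one genotype differed more for these lncRNAs than for protein-coding genes. The median within-group SD on the log2(FPKM + 1) scale was 0.341, beside 0.200 over the 7040 protein-coding genes with a mean of at least 3 FPKM. No test of this difference was run. The median coefficient of variation was 26.0% in HKO libraries and 23.7% in flox libraries. The lncRNAs were shorter and less abundant, with a median gene length of 1241 bases beside 2983 bases and a median level of 5.90 FPKM beside 10.6 FPKM. A lncRNA was covered by a median of 130 reads in a library, and 158 of the 165 had at least 10 reads in every library. None was at 0 in any library.

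The levels were uneven. Only 4 lncRNAs reached a mean of 100 FPKM, 43 lay between 10 and 100 FPKM, and 118 lay under 10 FPKM, 72 of them under 5 FPKM. The 10 most abundant made up 50.001% of the summed FPKM of the set, and Gm40812 alone 14.7%.

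Gm40812, a gene inside Camk2b on the opposite strand with a deposited length of 1916 bases, had 333, 161 and 175 FPKM in HKO livers, against 677, 780 and 36.0 FPKM in flox livers. Flox replicate 3 was the lowest of all 6 libraries and flox replicates 1 and 2 the highest, so the groups overlapped. The log2 fold change was -0.35 with a 95% interval of -3.01 to 2.31, and without flox replicate 3 it was -1.78. Camk2b, which encodes a calcium/calmodulin-dependent kinase subunit, averaged 3.55 ± 0.444 FPKM in HKO livers and 3.97 ± 2.57 FPKM in flox livers (SD, n = 3 each). Gm40812 had the largest within-group SD of the 165, at 1.80 on the log2 scale, followed by Gm32006 at 1.16.

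BC024386 came next with 253, 303 and 247 FPKM in HKO livers, against 163, 259 and 252 FPKM in flox livers. 0610005C13Rik, which overlaps the branched-chain aminotransferase gene Bcat2 on the opposite strand, had 113, 128 and 143 FPKM in HKO livers, against 146, 156 and 114 FPKM in flox livers. Gm10768, which lies 471 bases from the canalicular transporter gene Abcc2, had 180, 111 and 87.9 FPKM in HKO livers, against 125, 113 and 80.1 FPKM in flox livers. For these 3 the groups overlapped and none passed the test.

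AW112010, an interferon-inducible RNA of mouse immune cells, had 85.4, 138 and 110 FPKM in HKO livers, against 76.4, 59.4 and 77.4 FPKM in flox livers. Every HKO library lay above every flox library, but the log2 fold change of 0.62 did not pass the test (95% interval 0.13 to 1.11, limma adjusted p = 0.205). 1810008I18Rik had 82.2, 84.3 and 99.8 FPKM in HKO livers, against 33.9, 34.2 and 55.7 FPKM in flox livers, again without overlap. Its log2 fold change was 1.12 (SE 0.217, 95% interval 0.61 to 1.63, limma adjusted p = 0.0751), and without flox replicate 3 it was 1.35 with an adjusted p of 0.0403. The remaining lncRNAs of the 10 most abundant were Malat1, described below, 1810058I24Rik at 49.8 ± 9.18 FPKM in HKO livers and 51.9 ± 10.3 FPKM in flox livers, C730036E19Rik at 32.9 ± 12.9 FPKM in HKO livers and 36.3 ± 12.8 FPKM in flox livers (SD, n = 3 each), and Mir22hg.

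**Figure D2:**
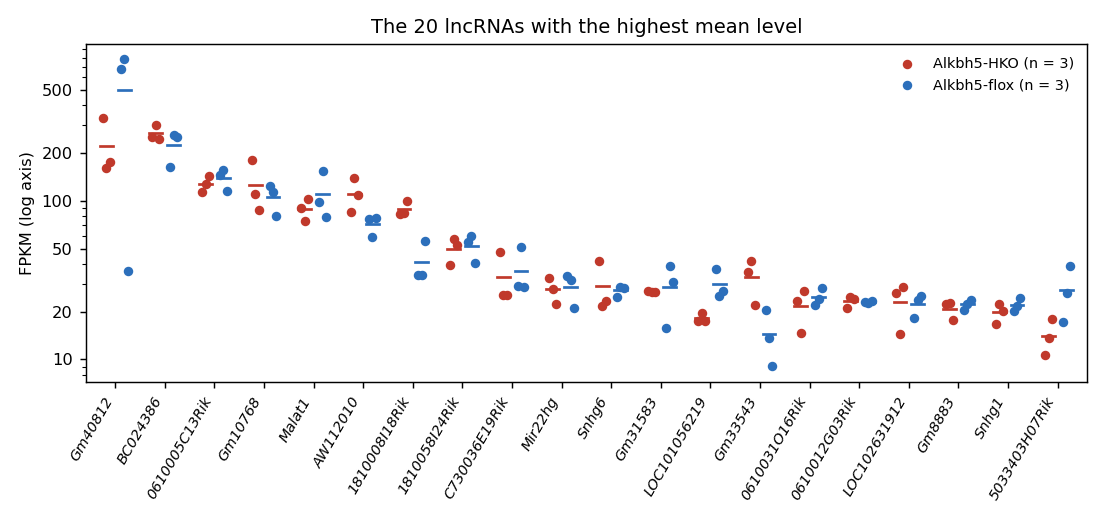
Levels of the 20 most abundant lncRNAs in each library (y axis, FPKM on a log scale), ordered by mean level, with HKO libraries in red on the left and flox libraries in blue on the right of each pair (n = 3 each). Points are libraries and bars are group means; the points of Gm40812 run from 36.0 to 780 FPKM among flox libraries, and those of 1810008I18Rik separate by group.

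The biotype of some entries differs between annotations. Of the 165, 153 matched the RefSeq gene table by gene ID, and RefSeq lists 145 of these as lncRNA and 8 as protein-coding. The 8 are 1810058I24Rik, 0610012G03Rik, LOC102631912 (Ndufb1, a respiratory complex I subunit), 1500011K16Rik (Mtln, the mitochondrial micropeptide mitoregulin), 2610001J05Rik, Toporsos (Smim27), BC029722 and Gm42048. Their log2 fold changes ran from -0.57 to 1.14 and none passed the test. RefSeq also names 2900097C17Rik as Norad, 1700020I14Rik as Oip5os1, the RNA known as Cyrano, and LOC102636514 as Hand2os1. These 8 were chosen by the RefSeq entry and not by their values.

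Nuclear body RNAs were both expressed. In these poly-A libraries, any part of either RNA without a poly-A tail was largely not counted. The FPKM of Neat1 was scaled to a deposited length of 20773 bases. Neat1, the scaffold of paraspeckles, had 9.10, 15.2 and 15.9 FPKM in HKO livers, against 18.8, 19.4 and 24.6 FPKM in flox livers. All HKO libraries lay below all flox libraries, with HKO replicate 1 lowest, and the log2 fold change of -0.63 did not pass the test (SE 0.225, 95% interval -1.16 to -0.11, limma adjusted p = 0.220). Malat1, an RNA of nuclear speckles, had 90.5, 75.03 and 102 FPKM in HKO livers, against 98.3, 155 and 79.1 FPKM in flox livers, with overlapping groups and a log2 fold change of -0.26 (95% interval -0.87 to 0.34).

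The snoRNA host genes carry snoRNAs in their introns, which guide modification of ribosomal and other RNAs, and their spliced exons are counted here. Of 19 such lncRNAs on the list used and found in the table, 12 were expressed and 0 passed the test. An unadjusted limma p under 0.05 was reached by 2, a share of 16.7% beside 17.0% of all genes tested. Among the 12, 10 were lower and 2 higher in HKO livers, where 52.0% of all genes tested were lower. Their median log2 fold change was -0.43, beside -0.02 over all genes tested. Their summed level was 120, 130 and 153 FPKM in HKO livers, against 157, 180 and 179 FPKM in flox livers, so that each HKO library was below each flox library. Listed hosts outside the 12 went both ways and none passed the test. Of those below 3 FPKM, Dancr was at -0.62, Snhg7 at -0.40 and Snhg14 at 0.85 (log2 fold changes). Snhg11, which the table lists as protein-coding, was at 0.64. All HKO libraries lay above all flox libraries for Snhg14 and Snhg11 (limma adjusted p of 0.180 and 0.170). The expressed lncRNA 2410006H16Rik is not on the list, and its start window is described below. It had 4.74, 16.4 and 22.7 FPKM in HKO livers, against 25.5, 28.3 and 23.7 FPKM in flox livers. All its HKO libraries lay below all flox libraries, and it did not pass the test (log2 fold change -1.005, limma adjusted p = 0.350). HKO replicate 1 was the lowest library for 9 of the 12. Without it the median was -0.22, and without flox replicate 3 it was -0.26.

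Snhg3 had 5.00, 7.49 and 12.2 FPKM in HKO livers, against 23.8, 22.2 and 13.3 FPKM in flox livers. The groups did not overlap, though HKO replicate 3 and flox replicate 3 were close (log2 fold change -1.20, SE 0.328, limma adjusted p = 0.143). Zfas1 had 11.5, 12.1 and 12.1 FPKM in HKO livers, against 13.2, 16.6 and 18.5 FPKM in flox livers, also without overlap (log2 fold change -0.39, limma adjusted p = 0.241). Gas5, which also binds the glucocorticoid receptor, had 7.36, 13.9 and 18.5 FPKM in HKO livers, against 16.7, 22.4 and 20.7 FPKM in flox livers. Snhg8 had 4.61, 5.49 and 11.6 FPKM in HKO livers, against 9.79, 11.3 and 11.2 FPKM in flox livers, and Snhg12 had 3.71, 8.82 and 11.4 FPKM in HKO livers, against 10.1, 14.5 and 10.5 FPKM in flox livers. In these last 3 HKO replicate 3 reached the level of the flox libraries. Log2 fold changes were -0.54 for Epb41l4aos, -0.47 for Snhg15, -0.16 for Snhg1, -0.14 for Snhg17 and -0.12 for Snhg20. The 2 hosts on the other side of 0 were Snhg6 at 0.03 and Snhg5 at 0.22.

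Start windows of 6 hosts are printed because several genes of this class are known to begin with a pyrimidine tract, the start of the terminal oligopyrimidine RNAs whose translation depends on growth signals. Each runs from 15 bases before the RefSeq start to 25 bases from it on GRCm38.p6, and capitals mark a run of at least 6 C or T that begins with C within 10 bases of the start.
Gas5: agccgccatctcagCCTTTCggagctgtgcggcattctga
Snhg8: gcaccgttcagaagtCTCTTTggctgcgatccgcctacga
Snhg12: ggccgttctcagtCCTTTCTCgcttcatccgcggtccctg
Snhg3: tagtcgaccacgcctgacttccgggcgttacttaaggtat
Snhg1: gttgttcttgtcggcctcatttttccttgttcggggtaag
Snhg5: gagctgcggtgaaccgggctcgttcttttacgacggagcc
The windows lie at chr1:161035151-161035190 (plus strand) for Gas5, chr3:123508312-123508351 (minus) for Snhg8, chr4:132308663-132308702 (plus) for Snhg12, chr4:132353662-132353701 (minus) for Snhg3, chr19:8723472-8723511 (plus) for Snhg1 and chr9:88522873-88522912 (minus) for Snhg5. Of 10 listed hosts with a promoter in the table, 3 held such a tract (Gas5, Snhg8 and Snhg12). The share was 21.4% among the 126 lncRNAs and 17.1% over all promoters. The window of 2410006H16Rik, which is not on the list, held a tract of 8 bases. For Zfas1 the RefSeq start used lay 169 bases from its deposited start. The 10 host promoters held a median of 25 CpG dinucleotides, beside 6 in the other 116, and 7 of the 10 held GGGCGG.

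**Figure D3:**
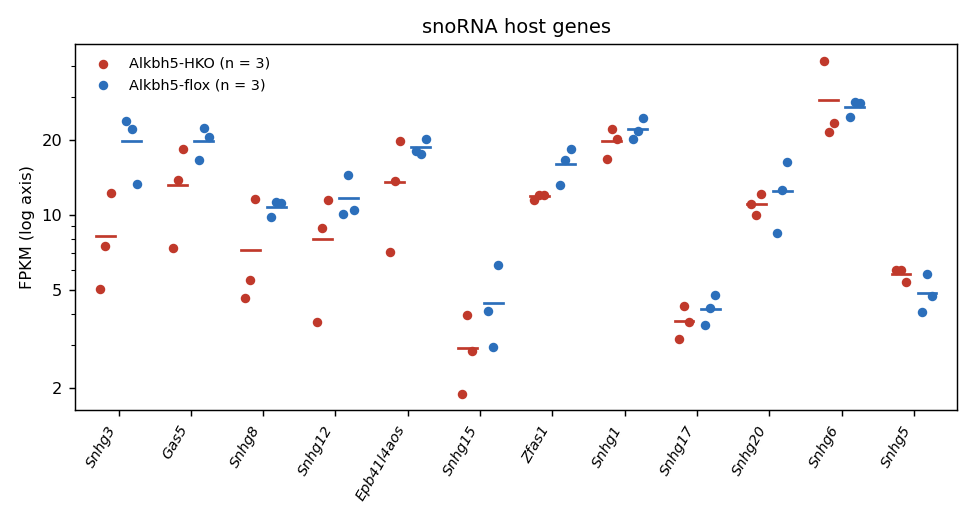
Levels of the 12 expressed snoRNA host genes in each library (y axis, FPKM on a log scale), ordered by log2 fold change, with HKO libraries in red on the left and flox libraries in blue on the right (n = 3 each). Points are libraries and bars are group means; Snhg3 at the left and Zfas1 are the hosts whose groups do not overlap, and the lowest red point is HKO replicate 1 for most hosts.

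Among RNAs linked to liver metabolism, 2 of 5 found were expressed, both were lower in HKO libraries without overlap, and neither passed the test. Of all genes tested, 12.6% were lower in HKO libraries without overlap, and 2 listed RNAs are too few to compare with this share. Gm16551, which restrains lipogenesis in mouse liver, had 3.00, 0.765 and 1.70 FPKM in HKO livers, against 5.06, 6.36 and 11.3 FPKM in flox livers (log2 fold change -1.61, SE 0.359, limma adjusted p = 0.0964). 4833411C07Rik, known in mouse liver for its link to Irs2, had 6.60, 9.25 and 6.77 FPKM in HKO livers, against 14.2, 15.99 and 13.97 FPKM in flox livers (log2 fold change -0.89, SE 0.155, limma adjusted p = 0.0664). Irs2, the insulin receptor substrate gene 84627 bases away, was at 3.97 ± 1.28 FPKM in HKO livers and 4.32 ± 0.585 FPKM in flox livers (SD, n = 3 each).

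Of 5 p53 and DNA damage RNAs found, 2 were expressed. Tug1 averaged 6.47 ± 1.502 FPKM in HKO livers and 5.76 ± 0.667 FPKM in flox livers, and 2900097C17Rik (Norad, which binds PUMILIO proteins) averaged 18.8 ± 2.43 FPKM in HKO livers and 19.6 ± 0.483 FPKM in flox livers (SD, n = 3 each). Of 8 microRNA host genes found, 2 were expressed: Mir22hg at 27.6 ± 5.18 FPKM in HKO livers and 28.8 ± 6.69 FPKM in flox livers, and Dleu2 at 3.02 ± 0.641 FPKM in HKO livers and 3.95 ± 0.727 FPKM in flox livers (SD, n = 3 each). Firre, the only expressed lncRNA of the X chromosome, known for nuclear organisation, averaged 11.97 ± 2.001 FPKM in HKO livers and 9.40 ± 1.48 FPKM in flox livers (SD, n = 3 each).
1700020I14Rik, which directs decay of a microRNA, was the 1 expressed RNA of 10 found among conserved cytoplasmic or chromatin RNAs, with 11.5, 7.77 and 7.78 FPKM in HKO livers, against 5.99, 7.38 and 5.59 FPKM in flox livers (log2 fold change 0.44, limma adjusted p = 0.277). None of the 8 lncRNAs found at imprinted loci, H19 and Meg3 among them, reached the minimum. The groups of Tug1, Norad, Mir22hg, Dleu2 and Firre overlapped, and none of the RNAs of these lists passed the test.

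Beside the pair that passed, the lncRNAs with the largest differences and non-overlapping groups are given as values, since none of them passed the test. On the lower side these were LOC108167326, Gm16551, Gm32281, LOC108168744, Ctcflos, 9030616G12Rik, Snhg3 and 4930413G21Rik, with log2 fold changes of -1.61 to -1.18 and adjusted p of 0.0525 to 0.265. On the higher side they were Gm31091, Gm6135, Gm33543, 1810008I18Rik, Gm38456, 2210039B01Rik, Gm41999, Gm41637, A930015D03Rik and Gm32202, with log2 fold changes of 0.90 to 1.35 and adjusted p of 0.0694 to 0.149. Gm6135 had 5.12, 4.71 and 6.74 FPKM in HKO livers, against 1.36, 2.63 and 1.07 FPKM in flox livers (log2 fold change 1.31, SE 0.233, limma adjusted p = 0.0694). Gm38456 had 13.5, 17.3 and 13.3 FPKM in HKO livers, against 4.12, 6.26 and 9.09 FPKM in flox livers (log2 fold change 1.11, limma adjusted p = 0.0949). Every HKO library of both lay above every flox library, and for both the nearest protein-coding gene (Tet2 for Gm6135, Lpp for Gm38456) lay far off, at 244020 bases with a log2 fold change of 0.22 for Tet2 and at 97117 bases with one of -0.26 for Lpp.

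**Figure D4:**
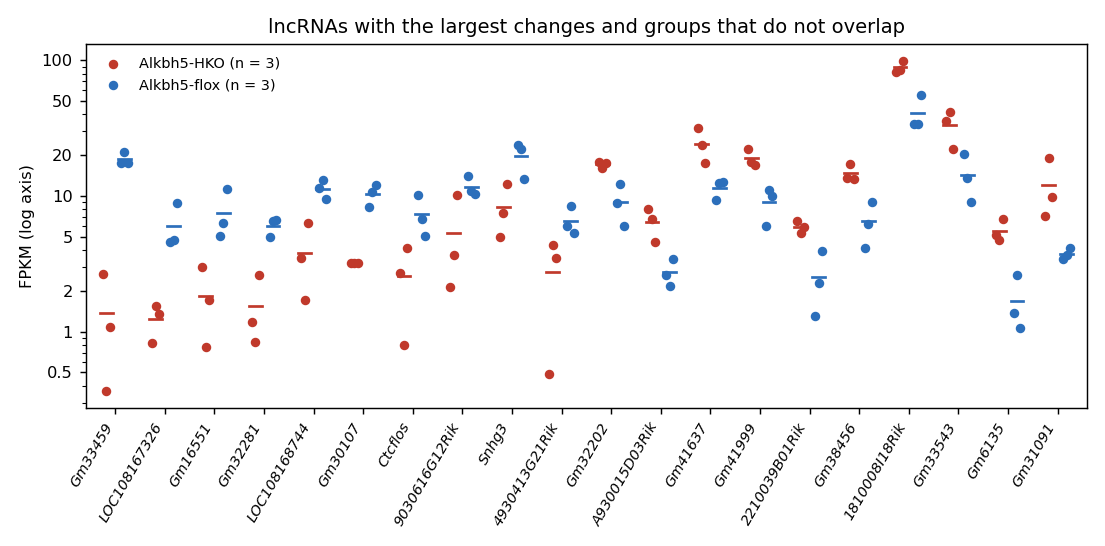
Levels per library (y axis, FPKM on a log scale) of 20 lncRNAs whose groups do not overlap. They are the 10 with the largest log2 fold changes in each direction, ordered from the most negative to the most positive. HKO libraries are in red on the left and flox libraries in blue on the right (n = 3 each). Points are libraries and bars are group means; Gm33459 at the far left has its HKO points at or under 2.66 FPKM and its flox points at or above 17.4 FPKM.

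By position, 62 of the 165 lncRNAs (37.6%) overlapped a protein-coding gene, 59 of them on the opposite strand and 3 on the same strand. The other 103 lay a median of 5618 bases from the nearest one, 27 within 1000 bases and 11 beyond 100000 bases, up to 545321 bases for Gm32461 and N6amt1. Among lncRNA genes that were not expressed at the minimum, 30.7% overlapped a protein-coding gene. For 8 lncRNAs several genes were equally near, and the gene with the lowest start was taken. The strand setting of the counting is not stated, so reads of a lncRNA and of an overlapping gene on the other strand cannot be told apart.

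Among lncRNAs that overlapped no protein-coding gene, 19 started within 1000 bases of a protein-coding start in the divergent direction (11.5% of the 165, beside 7.0% of the other lncRNA genes). A further 8 overlapped their neighbour on the opposite strand with starts within 1000 bases, Gm41999 and Toporsos among them, and are not in the 19. The snoRNA hosts Snhg1 (118 bases from Slc3a2), Zfas1 (88 bases from Znfx1) and Gas5 (302 bases from Zbtb37) were among the 19, as was Tug1 (443 bases from Morc2a). Chosen after their values were seen, Gm36172 and Gm16348 stood beside abundant liver genes: Gm36172 had 6.61 ± 1.75 FPKM in HKO livers and 6.11 ± 0.955 FPKM in flox livers, 143 bases from the urea cycle gene Arg1, and Gm16348 had 3.20 ± 1.47 FPKM in HKO livers and 3.78 ± 0.410 FPKM in flox livers, 153 bases from the hepatokine gene Fgl1 (SD, n = 3 each). Arg1 was at 884 ± 89.0 FPKM in HKO livers and 776 ± 135 FPKM in flox livers (SD, n = 3 each). Promoters were available for 15 of the 19, with a median of 28 CpG dinucleotides and GGGCGG in 73.3%, beside 6 CpG dinucleotides and 30.6% in the remaining 111, which include lncRNAs with overlapping starts. Across the 18 pairs with a tested neighbour, 11 had log2 fold changes of the same sign.

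Neighbours could be compared for 133 lncRNAs, those whose nearest protein-coding gene had a mean of at least 1 FPKM. In 78 of these pairs (58.6%) the lncRNA and its neighbour had log2 fold changes of the same sign, and Spearman's rho was 0.209 across pairs, which share libraries and are not independent. Neighbouring protein-coding genes gave 57.4% and a rho of 0.238 over 5663 pairs, so the lncRNA pairs were near this background. Levels were not ordered alike either: the neighbour was higher than the lncRNA in 78 of all 165 pairs and lower in 87, with a rho of -0.10 between the levels.

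In 3 pairs the neighbour passed the test, and in none of these did the lncRNA pass it. LOC108167326 overlaps the start of E2f8, a transcription repressor of the cell cycle, on the opposite strand. It had 0.828, 1.55 and 1.35 FPKM in HKO livers, against 4.55, 4.73 and 8.88 FPKM in flox livers, without overlap (log2 fold change -1.61, SE 0.252, limma adjusted p = 0.0525). E2f8 fell to 0.540 ± 0.327 FPKM in HKO livers, against 6.20 ± 1.34 FPKM in flox livers (SD, n = 3 each; log2 fold change -2.23, limma adjusted p = 0.0272). Its adjusted p was 0.0906, 0.0657, 0.113 and 0.0818 without HKO replicate 1 or 2 or flox replicate 1 or 2, and 0.111 without the filter on low values. With voom on recovered reads, LOC108167326 had an adjusted p of 0.0292.

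Gm32281 ends 626 bases before Paqr9, a member of the progestin and adipoQ receptor family, on the same strand. It had 1.18, 0.843 and 2.63 FPKM in HKO livers, against 5.00, 6.56 and 6.61 FPKM in flox livers, without overlap (log2 fold change -1.52, SE 0.258, limma adjusted p = 0.0646). Paqr9 fell to 53.7 ± 9.88 FPKM in HKO livers, against 124 ± 5.58 FPKM in flox livers (SD, n = 3 each; log2 fold change -1.21, limma adjusted p = 0.0373). Its adjusted p was 0.0608 to 0.165 without any single library other than HKO replicate 3, where it was 0.0401, and 0.123 without the filter on low values. In the third pair, named after its values were seen, the signs were opposite. Gm32643, which overlaps Nrp1 on the other strand, had 15.2, 21.1 and 15.6 FPKM in HKO livers, against 10.1, 11.1 and 10.99 FPKM in flox livers (log2 fold change 0.63, limma adjusted p = 0.117). Nrp1, a co-receptor for semaphorins and vascular growth factors, fell to 9.34 ± 0.526 FPKM in HKO livers, against 16.9 ± 0.946 FPKM in flox livers (SD, n = 3 each; log2 fold change -0.80, limma adjusted p = 0.0472).

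Further pairs among the named lncRNAs are given as values, since neither gene of these pairs passed the test. Gm31091 overlaps BC089597 on the opposite strand and had 7.09, 19.2 and 9.83 FPKM in HKO livers, against 3.44, 3.65 and 4.13 FPKM in flox livers (log2 fold change 1.35, SE 0.313, limma adjusted p = 0.09997). BC089597 had 156 ± 15.3 FPKM in HKO livers and 82.8 ± 5.61 FPKM in flox livers (SD, n = 3 each; log2 fold change 0.91, limma adjusted p = 0.0525). Onecut1, a liver transcription factor gene that starts 13484 bases from the start of Gm16551 on the same strand, had 3.46, 1.17 and 3.91 FPKM in HKO livers, against 6.32, 5.80 and 20.3 FPKM in flox livers, and flox replicate 3 was the highest library for both genes. Gm41999 overlaps the carbonic anhydrase gene Car3 on the opposite strand and had 18.9 ± 2.83 FPKM in HKO livers and 9.07 ± 2.69 FPKM in flox livers (SD, n = 3 each; log2 fold change 1.02). Car3 had 1418 ± 115 FPKM in HKO livers and 1050 ± 209 FPKM in flox livers (SD, n = 3 each). LOC108168744 starts 82 bases from AI182371. The log2 fold change was -1.46 for the lncRNA and 0.15 for AI182371, with adjusted p of 0.09997 and 0.630.

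**Figure D5:**
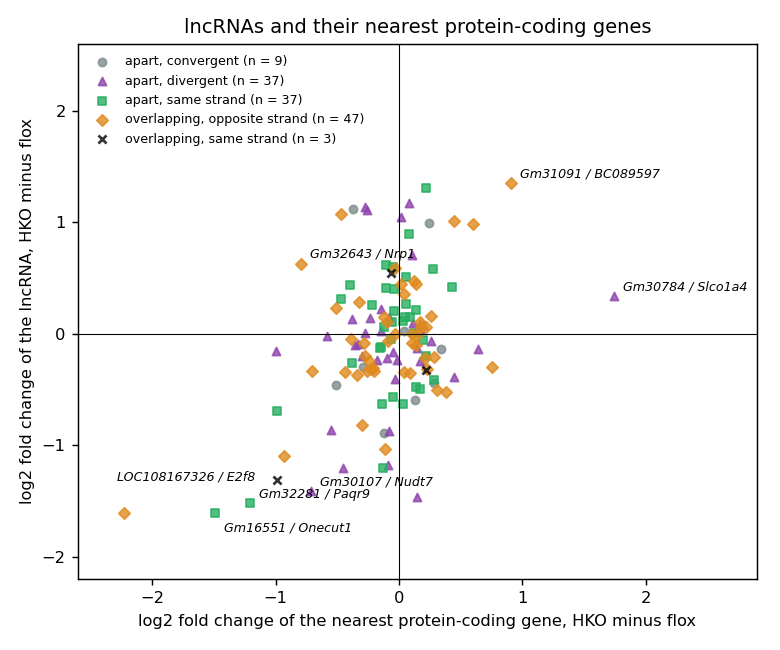
Log2 fold change (HKO minus flox) of each lncRNA (y axis) against that of its nearest protein-coding gene (x axis) for the 133 pairs with a tested neighbour, with symbols for the arrangement of the pair. LOC108167326 with E2f8 and Gm32281 with Paqr9 lie at the lower left, Gm32643 with Nrp1 at the upper left, Gm31091 with BC089597 at the upper right, and Gm30784 with Slco1a4 at the far right (1.74 for Slco1a4, adjusted p = 0.0911).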

How the data were processed

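Poly-A RNA of 3 HKO and 3 flox livers was sequenced in read pairs. The authors deposited 1 table of FPKM per gene with gene coordinates, biotype and length. Per the submitters' processing notes, reads were aligned to GRCm38.p6 with HISAT2 2.0.5 and counted with featureCounts 1.5.0-p3; CASAVA is also named there. FPKM times gene length gave whole reads for 100% of values (tolerance 0.001), so depth was recovered, and the library sizes implied by the deposited values lay between 0.925 and 1.08 of the read sums.

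From the deposited FPKM, log2(FPKM + 1) of the 10453 genes with a mean of at least 1 was fitted with limma 3.58.1 (trend and robust; statmod 1.5.0, R 4.3.3), with adjustment over all genes at 0.05. The method was tested on simulated data. It called 12 of 20 lncRNAs changed 2-fold and 19 of 20 changed 4-fold, so 2-fold changes were often missed. For other genes it called 55 of 80 and 78 of 80, and it called 10 of 10135 unchanged genes. Nearest genes and promoters were found with Python 3.11.15, and plots drawn with matplotlib 3.10.9. Sequences are from RefSeq, GRCm38.p6.

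Libraries of a group were checked for copies. They differed by more than counting noise (chi-square per degree of freedom of 28.3 to 63.0), so none was a copy of another. All 6 were kept. The members and the gene lists were chosen with earlier results of these data known, and so were the tests. Named lncRNAs were those past the threshold, the 10 most abundant, the 10 with the largest change in each direction among those with non-overlapping groups, list members, and their neighbours. Other pseudocounts, filters, scalings, members and single-library omissions were tried. Labels call the 3 mice of a group independent replicates.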

Additional observations from a re-analysis of the deposited data

How the results depend on the processing

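The count of lncRNAs lower in HKO (2) was 1 with a pseudocount of 0.1, 0 without the filter on low values, and 0 with the replicate block, and ranged from 0 to 5 when single libraries were left out (0 without HKO replicate 2 or flox replicate 1 or 2, 1 without HKO replicate 1, 3 without flox replicate 3 and 5 without HKO replicate 3). The cause of these differences was not tested. Without the filter, more genes entered both the fit and the adjustment. It was 3 with voom, also when scaled to the sum of reads. That scaling, the sets without overlapping genes or of RefSeq lncRNAs alone (145), and the omissions for snoRNA hosts were chosen after seeing the data. The count of lncRNAs higher in HKO (0) was 1 with TPM (Gm6135), 1 with lncRNAs of at least 2 FPKM (Gm32304), and 0 to 1 with single libraries left out. The number of lncRNAs was 93 at a minimum of 5 FPKM, 299 with TPM in place of FPKM, and 103 without those overlapping a protein-coding gene. The median log2 fold change was 0.012 with TPM and 0.0093 with voom scaled to the sum, and -0.099 to -0.010 with single libraries left out.

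Deviations from the group mean had correlations of 0.153, -0.145 and -0.0514 between same-numbered libraries. Differently numbered libraries gave -0.157 to 0.248. With 3 libraries in a group, these values cannot tell whether the numbers pair the mice. With the replicate block the adjusted p was 0.0741 for Gm33459, 0.0681 for Gm30107, 0.0950 for Paqr9 and 0.0316 for E2f8.

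Of 1482 recomputed values of named genes, 1400 kept their direction and side of the threshold. In 24 a call was lost, all of them for Gm33459, Gm30107, E2f8 and Paqr9, in 13 one was gained, and 45 reversed. No reversed gene had passed the test. Camk2b was -0.027 with a pseudocount of 5 and Mir22hg 0.0080 with quantile scaling. With TPM, 1810058I24Rik was 0.020, Mir22hg 0.030, 2900097C17Rik 0.012, Tlcd2 0.0073 and Slc3a2 0.022. With voom scaled to the sum they were 0.018, 0.028, 0.0093, 0.0049 and 0.021. With single libraries left out, log2 fold changes ranged from -0.076 to 0.44 for Gm10768, -0.23 to 0.099 for 1810058I24Rik, -0.26 to 0.20 for Snhg6, -0.025 to 0.25 for Tug1, -0.48 to 0.39 for Camk2b, -0.097 to 0.28 for Abcc2, -0.18 to 0.058 for Tlcd2, -0.025 to 0.14 for Eea1, -0.15 to 0.023 for Rbbp6, -0.12 to 0.079 for Slc3a2, -0.33 to 0.088 for Dctn2, -0.056 to 0.31 for Bcat2, -0.045 to 0.076 for Tmem30b, -0.31 to 0.057 for Irs2, -0.25 to 0.090 for Mir22hg, -0.046 to 0.13 for Frmd8, -0.023 to 0.35 for Trnau1ap, -1.78 to 0.42 for Gm40812, -0.47 to 0.0060 for Malat1, -0.44 to 0.12 for C730036E19Rik and -0.35 to 0.083 for Snhg20.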

Other observations

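Among lncRNAs below the minimum of 3 FPKM, 2 passed the test. Gm32304 rose to 3.55 ± 0.941 FPKM in HKO livers, against 0.933 ± 0.205 FPKM in flox livers (SD, n = 3 each; log2 fold change 1.22, limma adjusted p = 0.0481). 2310034O05Rik rose to 3.23 ± 0.496 FPKM in HKO livers, against 0.471 ± 0.371 FPKM in flox livers (SD, n = 3 each; log2 fold change 1.55, limma adjusted p = 0.0410). Both were higher in 3 of 3 HKO libraries. H19, the imprinted RNA that is abundant in fetal liver, had 0.573, 2.12 and 2.07 FPKM in HKO livers, against 0, 0.126 and 0.0267 FPKM in flox livers, and its mean was too low for the test. Gm15441 had 0.336, 0.293 and 0.199 FPKM in HKO livers, against 11.3, 0.904 and 1.06 FPKM in flox livers, where flox replicate 1 was far above the other two. Mirt2 had 2.70, 1.46 and 1.65 FPKM in HKO livers, against 0.766, 0.593 and 0.880 FPKM in flox livers (log2 fold change 0.73, limma adjusted p = 0.124).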
